A study of Mus musculus with 12 samples.

Results

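Glutamate, GABA, glycine and acetylcholine act on cells of the inner ear through receptors that are built from subunits, and the genes that encode these subunits are described here in the cochlear sensory epithelium of mice at postnatal day (P)6. Members were chosen by gene symbol alone, as the ionotropic glutamate receptor genes (*Gria*, *Grik*, *Grid* and *Grin*), the metabotropic glutamate receptor genes (*Grm*), the GABA-A receptor genes (*Gabr*), the glycine receptor genes (*Glra* and *Glrb*) and the nicotinic acetylcholine receptor genes (*Chrn*) other than *Chrna9* and *Chrna10*. This gave 63 of the 28686 gene symbols in the count table. They comprised 4 AMPA, 5 kainate, 2 delta, 7 NMDA, 8 metabotropic, 18 GABA-A, 5 glycine, 9 neuronal nicotinic and 5 muscle nicotinic subunits.

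RNA-seq was carried out on cochlear tissue of 6 *Sox2CreER/+Jag1fl/fl* mutants and of 6 *Sox2+/+* littermates as controls, all at P6. The labels give the strain of all 12 as C57BL/6;129SV, whereas the study's methods give a C57BL/6J background for the *Sox2CreER* line and FVB/N for the *Jag1fl* line. *Sox2CreER* is a tamoxifen-inducible Cre recombinase made from the *Sox2* locus, which is active in the supporting cells of the cochlea, and *Jag1fl* is a floxed allele of the Notch ligand gene *Jag1*. All pups, controls included, were given tamoxifen on P0 and P1. Controls lacked the CreER allele and carried *Jag1+/fl* or *Jag1fl/fl*, so that changes at *Sox2* and at *Jag1* cannot be told apart.

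Sound makes inner hair cells release glutamate onto the endings of spiral ganglion neurons, where AMPA receptors carry the fast current, while NMDA, kainate and delta receptors are also found at excitatory synapses. GABA-A and glycine receptors are chloride channels that mediate fast inhibition, and nicotinic receptors are acetylcholine-gated cation channels of neurons and of muscle. Each of these receptors is an assembly of several subunits, so that the make-up of a family matters as well as its total.

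Total counts lay between 28498549 and 36134983 reads per library. Levels are in CPM, which scales each gene's count to the TMM-adjusted size of its library, and levels of different genes are compared only after division by exon length in kilobases. *Jag1*, the targeted gene, lay between 83.0 and 117.6 CPM in controls and between 24.2 and 42.9 CPM in mutants, and the groups did not overlap (log2 fold change -1.48 ± 0.13 SE, edgeR quasi-likelihood adjusted p = 0.000258). The tissue held its defining cells in each library: 12 hair cell markers summed to between 515 and 566 CPM in controls and between 470 and 608 CPM in mutants, and 10 supporting cell markers to between 2847 and 3613 CPM and between 2538 and 2934 CPM. 9 skeletal muscle markers summed to at most 8.9 CPM and 6 oligodendrocyte markers to at most 1.1 CPM in any library. The 15 neuron markers summed to between 138.6 and 310.0 CPM in controls and between 202.0 and 1425 CPM in mutants, and 13 of the 15 were higher in mutants at an unadjusted p under 0.05, though none at an adjusted p under 0.05. The 13 Schwann cell markers summed to between 487 and 1481 CPM in controls and between 1258 and 6256 CPM in mutants, and 12 of the 13 were higher at an unadjusted p under 0.05, again none after adjustment. Of the other marker lists, 4 of 10 supporting cell markers and 5 of 9 macrophage markers lay lower in mutants with unadjusted p-values under 0.05, of which the Notch modulator gene *Lfng* passed the adjusted threshold. From RNA levels in a tissue with several cell types, fewer cells of a type and less RNA per cell cannot be told apart. Nor can more cells and more RNA per cell. By histology at P6 the study reported a substantial loss of Hensen's cells, a kind of supporting cell, in mutants. Spiral ganglion neurons per unit area did not differ significantly between the genotypes at P6 in its counts.

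The library of mutant 4 stood apart from the other 11. In it 195 of the 18459 tested genes were more than 2-fold above each other library, while the same count was between 0 and 25 in the others. Among them, chosen after their values were seen, were *Prph*, which encodes peripherin, an intermediate filament protein of peripheral neurons (155 CPM against at most 1.35 CPM in any other library), *P2rx3*, which encodes an ATP-gated channel of sensory neurons (71.6 against at most 13.5 CPM), and *Scn10a* (1.46 against at most 0.172 CPM) and *Scn11a* (5.14 against at most 0.143 CPM), which encode sodium channels of peripheral sensory neurons. The neuron markers, which include *Prph* and *Scn9a*, summed to 1425 CPM in mutant 4 and to at most 722 CPM in the other mutants, whereas the Schwann cell markers were at 1258 CPM in mutant 4, the lowest of the mutants. Results on the receptor genes that rest on mutant 4 are therefore given with and without it.

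Of the 63 subunits, 49 had a mean count of at least 5 per library and were tested. The other 14 were *Chrna2*, *Chrna6*, *Chrnd*, *Gabrd*, *Gabrp*, *Gabrr1*, *Gabrr2*, *Gabrr3*, *Glra1*, *Glra3*, *Glra4*, *Grm2*, *Grm5* and *Grm6*, none of which exceeded 11 counts in any library. Among them are the rho subunits of GABA-A receptors (*Gabrr1* to *Gabrr3*), which are known from the retina, and *Grm6*, the receptor of retinal ON bipolar cells.

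No subunit passed an adjusted p under 0.05 in edgeR's quasi-likelihood test, where 35 of 18459 genes (0.190%) did. Before adjustment the subunits leaned towards higher levels in mutants. At an unadjusted p under 0.05, 15 of the 49 were higher in mutants, against 6.52% of all tested genes, and 1 of the 49 was lower, against 4.04%. Among the 15 were *Gria2*, *Grik2*, *Grik4*, *Grin1*, *Gabra2*, *Gabra3*, *Gabra5*, *Gabre*, *Gabrg1*, *Glra2*, *Chrna5* and *Chrnb2*, and the 1 was *Grid1*. Of these, *Gabra5*, *Gabrg1*, *Glra2* and *Chrna5* had a control mean under 5 counts. They passed the filter only through mutants in which they were high, which favours a higher level in this count. The median log2 fold change of the 49 subunits was 0.18, with 36 of them above 0, and that of all tested genes was 0.0030. Without mutant 4 the median of the tested subunits was 0.08, and with the neuron and Schwann cell marker scores as covariates it was 0.0013. Each of the 6 mutants lay above each of the 6 controls for 2 of the 49, *Grik4* and *Chrna5* (0.618% of all tested genes), and below each control for none (0.379%). *Gabrp*, under the filter with at most 7 counts in any library, was lower in CPM in each mutant than in each control. In counts, controls 2 and 4 and mutant 5 held 2 each, so that this gap lies within counting error. How many other genes under the filter lay this way was not counted. DESeq2, fitted to the same counts, called 5 subunits higher at an adjusted p under 0.05, *Gria2*, *Grik2*, *Grik4*, *Grin1* and *Chrnb2* (2.56% of all genes), and gave no adjusted p for *Gabra2*, *Gabrb2* and *Gabrg1*, among others.

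**Figure D1:**
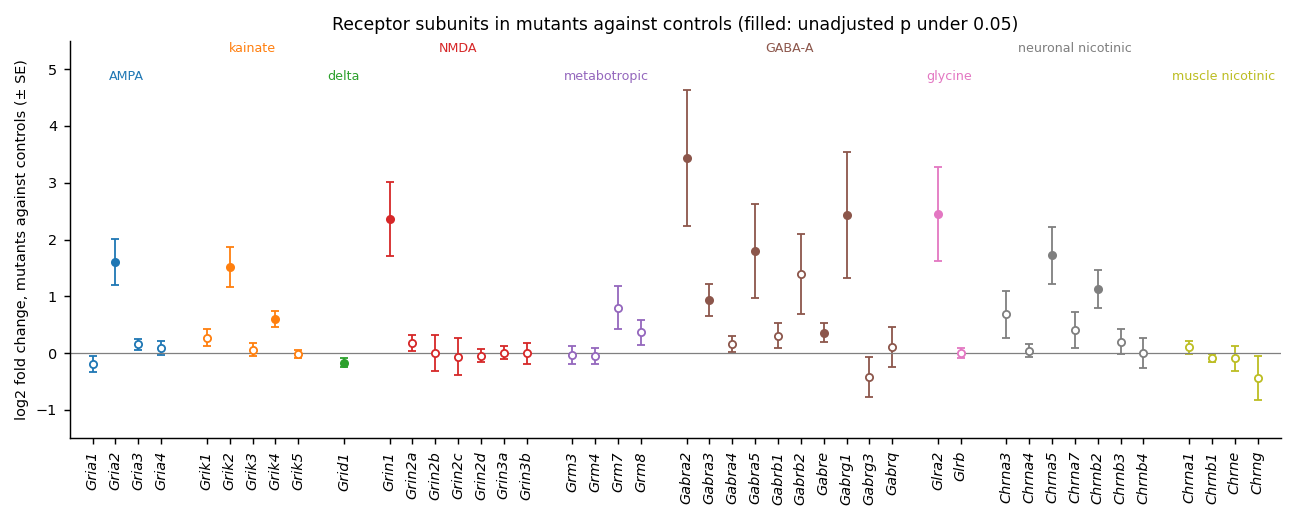
Log2 fold change of 44 of the 49 tested subunits in mutants against controls on the vertical axis, by family along the horizontal axis. Points are edgeR estimates, bars their standard errors and filled points an unadjusted p under 0.05. Filled points above 0 stand in 6 of the 9 families, and the widest bars belong to GABA-A subunits.

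Mutants 4 and 5 moved these counts in different ways. Without mutant 4, 8 of 47 tested subunits were higher in mutants at an unadjusted p under 0.05 (5.63% of all genes), namely *Gria2*, *Grik2*, *Grik4*, *Grin1*, *Gabra3*, *Glra2*, *Chrna5* and *Chrnb2*. Here too *Glra2* and *Chrna5* passed the filter only through mutants in which they were high, which favours a higher level in this count. Of the 8 GABA-A subunits that were higher with all mice, *Gabra3* remained, and *Gabra5* and *Gabrg1* were under the filter without mutant 4. Mutant 5 held the lowest summed neuron markers of the mutants, 202.0 CPM. Without mutant 5, the edgeR test called 5 subunits higher at an adjusted p under 0.05, the same *Gria2*, *Grik2*, *Grik4*, *Grin1* and *Chrnb2* (1.72% of all genes). With the neuron and Schwann cell marker scores of each mouse as covariates, 1 of the 49 subunits, *Chrna5*, was higher before adjustment (p under 0.05, 1.25% of all genes) and 1, *Gria4*, was lower (1.56%), and 1 gene of all tested, no subunit, passed the adjusted threshold. These markers leaned higher in mutants, so that the fit also takes away part of any difference between the genotypes.

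*Gria3* and *Gria4* were the main AMPA subunit genes of the tissue. Per kilobase, *Gria3* stood at 6.68 CPM in controls, *Gria4* at 3.06, *Gria1* at 1.22 and *Gria2* at 0.105. *Gria2* encodes GluA2, the subunit that makes AMPA receptors nearly impermeable to calcium. Per kilobase its level was the lowest of the 4 in each of the 12 mice. The lengths used were those of all annotated exons merged, 15.55 kb for *Gria2* and 6.04 kb for *Gria1*. Before division by length *Gria2* was above *Gria1* in mutant 2 (9.80 against 6.25 CPM) and below it in each other mouse.

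*Gria2* lay between 0.530 and 2.27 CPM in controls (median 1.70) and between 2.18 and 9.80 CPM in mutants (median 3.87). 5 of 6 mutants lay above each control, and mutant 3, at 2.18 CPM, lay below 1 of them. In edgeR the log2 difference between the groups was 1.61 ± 0.41 (SE, adjusted p = 0.108) with all mice and 1.44 ± 0.41 (SE, adjusted p = 0.152) without mutant 4. As a share of AMPA subunit counts per kilobase, *Gria2* took 0.94% ± 0.34 (SD, n = 6) in controls and 2.50% ± 1.15 (SD, n = 6) in mutants.

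*Gria3*, the most abundant AMPA subunit gene per kilobase, lay between 59.3 and 76.0 CPM in controls (median 64.5) and between 60.5 and 93.5 CPM in mutants (median 71.9), and the groups overlapped (log2 fold change 0.16 ± 0.10 SE, edgeR adjusted p = 0.674). *Gria1* and *Gria4* had log2 fold changes of -0.19 and 0.09 with overlapping groups. *Gria3* made up 60.3% ± 1.27 (SD, n = 6) of the family in controls and 61.7% ± 4.32 in mutants. The difference in *Gria2* left the order of the 4 subunits per kilobase as it was.

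*Gria2* lies on chromosome 3 (chr3:80681450-80802835, GRCm38). The 250 bases before the start are shown for *Gria2*, *Grin1* and *Chrnb2*, and for *Gabra2* and *Gabrg1*, neighbouring genes that stood out in mutant 4. At least 4 mutants lay above each control for *Gria2*, *Grin1* and *Chrnb2*, as also for *Grik4*, *Grik2*, *Chrna5* and *Gabra3*, among others not shown. The promoters shown are thus single examples and do not stand for either kind. The starts are RefSeq starts on GRCm38.p6, all on the minus strand. The bases are written along the gene, with each CG dinucleotide in capitals. The window holds chr3:80802836-80803085 for *Gria2*, chr2:25319188-25319437 for *Grin1*, chr3:89764633-89764882 for *Chrnb2*, chr5:71095850-71096099 for *Gabra2* and chr5:70842618-70842867 for *Gabrg1*.
Gria2: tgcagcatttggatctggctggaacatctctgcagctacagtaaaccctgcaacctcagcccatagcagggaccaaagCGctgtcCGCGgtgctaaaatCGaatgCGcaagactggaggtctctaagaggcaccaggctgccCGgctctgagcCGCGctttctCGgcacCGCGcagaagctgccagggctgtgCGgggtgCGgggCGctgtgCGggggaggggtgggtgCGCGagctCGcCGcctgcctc
Grin1: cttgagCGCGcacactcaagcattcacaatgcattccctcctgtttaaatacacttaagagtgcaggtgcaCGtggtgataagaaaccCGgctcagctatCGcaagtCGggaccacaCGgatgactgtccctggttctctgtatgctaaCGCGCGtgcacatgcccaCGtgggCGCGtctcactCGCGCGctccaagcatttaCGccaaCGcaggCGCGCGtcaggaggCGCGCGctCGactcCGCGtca
Chrnb2: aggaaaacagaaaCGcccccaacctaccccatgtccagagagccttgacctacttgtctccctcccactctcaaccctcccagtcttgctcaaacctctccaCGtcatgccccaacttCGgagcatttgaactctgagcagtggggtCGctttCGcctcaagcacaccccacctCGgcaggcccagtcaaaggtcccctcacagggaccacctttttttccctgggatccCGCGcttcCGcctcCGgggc
Gabra2: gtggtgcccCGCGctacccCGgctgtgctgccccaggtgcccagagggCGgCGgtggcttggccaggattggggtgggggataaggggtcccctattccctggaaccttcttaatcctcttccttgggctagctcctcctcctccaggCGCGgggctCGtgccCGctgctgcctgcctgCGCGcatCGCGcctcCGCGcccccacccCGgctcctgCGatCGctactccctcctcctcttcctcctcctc
Gabrg1: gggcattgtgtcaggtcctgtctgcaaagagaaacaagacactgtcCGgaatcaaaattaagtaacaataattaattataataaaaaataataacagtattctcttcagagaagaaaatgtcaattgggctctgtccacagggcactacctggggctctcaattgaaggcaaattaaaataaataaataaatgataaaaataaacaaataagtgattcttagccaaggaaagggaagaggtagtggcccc
The windows hold 19, 27, 10, 18 and 1 CG dinucleotides in that order, against a median of 6 over 32851 starts of all genes, of which 92.1% hold at least 1. Over the 51 starts found for 43 of the subunits the median was 8. The promoter of *Gabra2* was thus rich in CG and that of *Gabrg1* poor, although both genes stood out in the same mouse.

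*Grik4* and *Grik2*, of the kainate family, had the smallest p-values of the 49 subunits. *Grik4* encodes GluK4, a subunit that needs a partner of the low-affinity type to form a channel, and *Grik2* encodes GluK2, such a partner. *Grik4* lies at chr9:42518135-42944493 and *Grik2* at chr10:49094833-49788766.

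*Grik4* lay between 2.20 and 3.33 CPM in controls (median 3.23) and between 3.88 and 5.29 CPM in mutants (median 4.40). Its groups did not overlap, and the lowest mutant was mutant 5. With all mice this made a log2 fold change of 0.60 ± 0.13 (SE, edgeR adjusted p = 0.0834), and without mutant 4 of 0.55 ± 0.14 (SE, adjusted p = 0.104).

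*Grik2* lay between 0.436 and 1.43 CPM in controls (median 0.919) and between 1.18 and 5.19 CPM in mutants (median 2.19). 5 of 6 mutants were above each control, the exception being mutant 5 at 1.18 CPM, and the highest value was that of mutant 2. edgeR gave 1.52 ± 0.35 (SE, adjusted p = 0.0834) as the log2 fold change, and 1.55 ± 0.37 (SE, adjusted p = 0.0948) without mutant 4. In mutant 4 *Grik2* was at 2.34 CPM, within the range of the other mutants.

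*Grik5*, which encodes the high-affinity subunit GluK5, was by far the most abundant kainate subunit gene, with 82.5% ± 2.20 (SD, n = 6) of family counts per kilobase in controls and 79.2% ± 2.11 in mutants. It lay between 65.3 and 83.3 CPM in controls (median 71.1) and between 62.0 and 77.8 CPM in mutants (median 70.4), with -0.02 ± 0.07 (SE, edgeR adjusted p = 0.963) as the log2 fold change. *Grik1* and *Grik3* had log2 fold changes of 0.27 and 0.06 with overlapping groups. The share of *Grik4* was 2.94% ± 0.44 in controls and 4.36% ± 0.34 in mutants, and that of *Grik2* 0.41% ± 0.17 and 1.14% ± 0.54, so that together they remained a small part of kainate subunit counts.

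**Figure D2:**
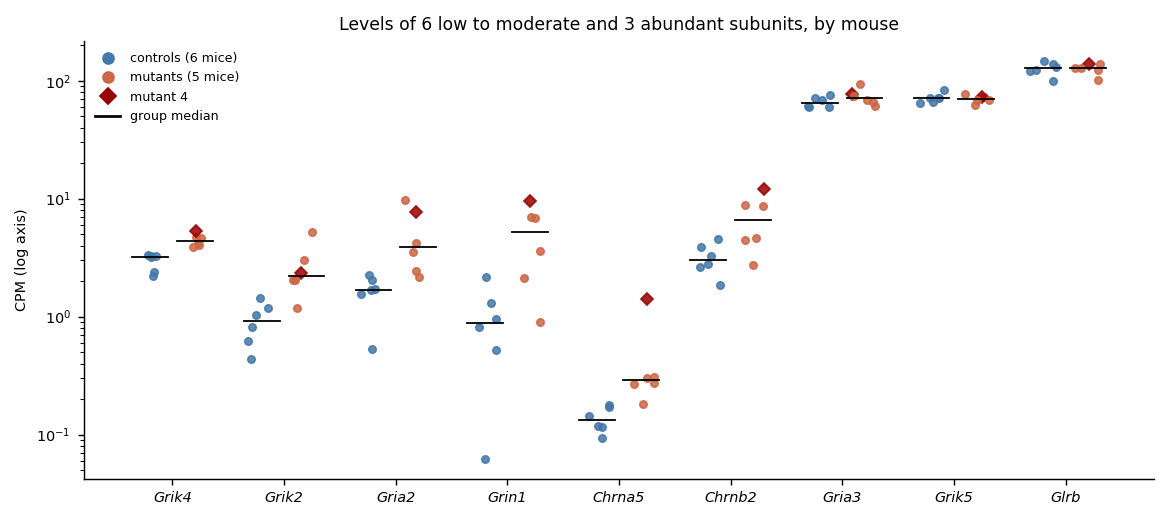
CPM of 9 subunits in each mouse on a log axis, with controls and mutants side by side, mutant 4 as a diamond and group medians as bars. *Grik4* and *Chrna5* show no overlap between the groups, *Gria2*, *Grik2*, *Grin1* and *Chrnb2* overlap in part, and *Gria3*, *Grik5* and *Glrb* have group medians that lie close together.

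*Grid1*, of the delta family, was the 1 subunit whose level was lower in mutants before adjustment (p under 0.05). It encodes GluD1, a synaptic adhesion partner of neurexins and cerebellins whose loss is known to affect hearing in mice at high frequencies. *Grid1* lay between 26.3 and 32.8 CPM in controls (median 28.2) and between 22.9 and 28.8 CPM in mutants (median 25.3), with overlapping groups and a log2 difference of -0.17 ± 0.08 (SE, edgeR adjusted p = 0.441). Its lowest value was that of mutant 4. The difference in *Grid1* was thus not a call.

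*Grin1* encodes GluN1, the subunit that every NMDA receptor contains, and was the NMDA subunit gene that differed between the groups at an unadjusted p under 0.05. It lay between 0.0623 and 2.17 CPM in controls (median 0.892) and between 0.902 and 9.47 CPM in mutants (median 5.21). 4 of 6 mutants were above each control, whereas mutants 3 and 5 lay among the controls. In edgeR the log2 difference between the groups was 2.36 ± 0.65 (SE, adjusted p = 0.133) with all mice and 2.07 ± 0.64 (SE, adjusted p = 0.210) without mutant 4. Of the 9700 exon bases of *Grin1*, 1307 also belong to the antisense gene *Grin1os*, and whether reads were counted by strand is not given in the sources used here.

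The other NMDA subunits overlapped between the groups and had log2 fold changes between -0.06 and 0.18. *Grin2d*, which encodes a GluN2 subunit of early development and was the most abundant per kilobase, lay between 7.66 and 9.67 CPM in controls (median 8.67) and between 6.16 and 9.48 CPM in mutants (median 8.66), with -0.05 ± 0.11 (SE, edgeR adjusted p = 0.950) as the log2 fold change. *Grin3a*, which encodes a GluN3 subunit that binds glycine, had a log2 fold change of 0.01. *Grin2b* ranged from 3.44 to 9.77 CPM in controls alone and had 0.00 ± 0.31 (SE) as its log2 fold change.

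Levels of *Grin1* in controls were low beside those of its partners. Per kilobase it made up 3.0% ± 2.14 (SD, n = 6) of NMDA subunit counts in controls and 13.3% ± 7.76 in mutants, while *Grin2d* and *Grin3a* together made up most of the family in each mouse. *Grin1* was the least abundant NMDA subunit gene in control 4, at 0.21% of family counts, and took 22.7% in mutant 4. Without mutant 4 its share in mutants lay between 2.99% and 19.5%.

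**Figure D3:**
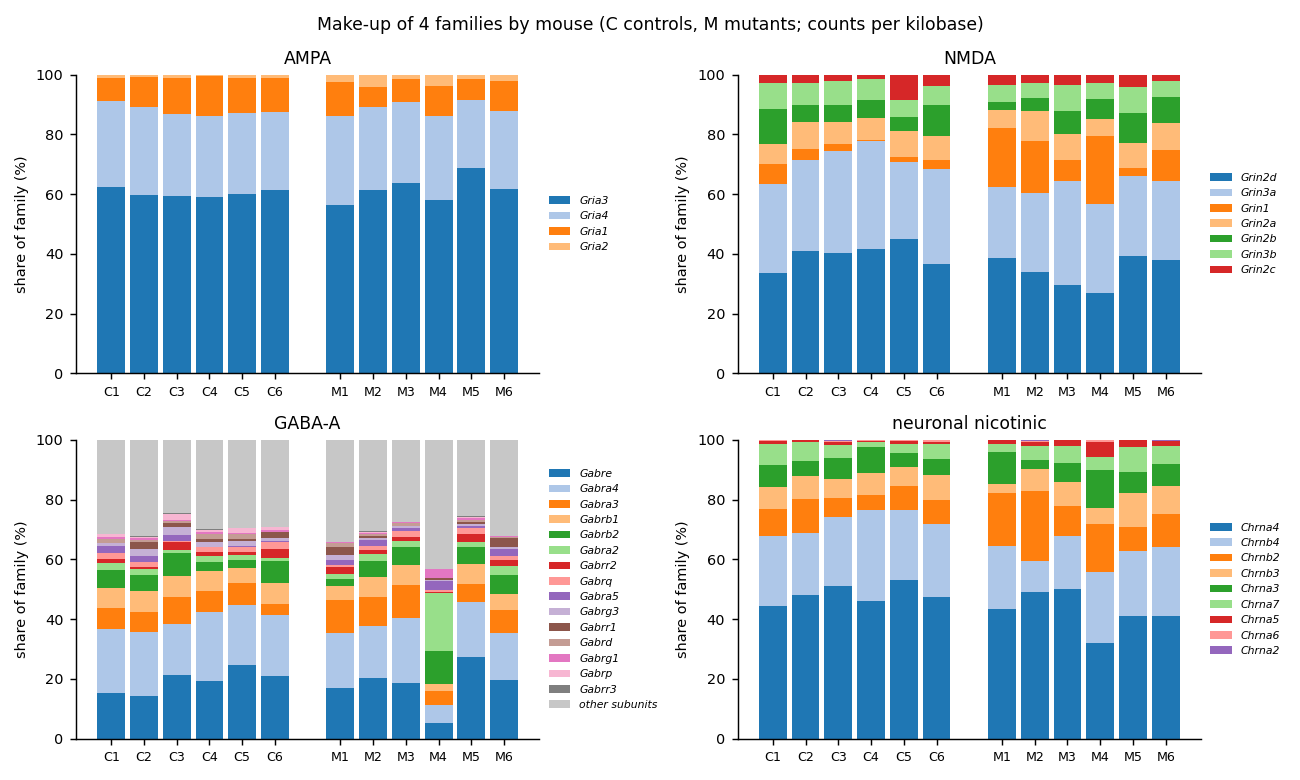
Share of each subunit in the counts per kilobase of its family, in percent, with some GABA-A subunits drawn together in grey, for the AMPA, NMDA, GABA-A and neuronal nicotinic families in each of 6 controls (C) and 6 mutants (M). *Gria3* takes between 56.5% and 68.7% of the AMPA bars, the *Grin1* part of the NMDA bars lies between 0.21% and 6.57% in controls and between 2.99% and 22.7% in mutants, and *Gabra2* takes 19.5% of the GABA-A bar of mutant 4 and at most 3.03% of those of the other mutants.

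None of the 5 tested metabotropic glutamate receptor genes, among them *Grm3*, *Grm4*, *Grm7* and *Grm8*, differed at an unadjusted p under 0.05, and *Grm2*, *Grm5* and *Grm6* were below the filter. *Grm4*, which encodes a presynaptic autoreceptor of group III, lay between 15.6 and 28.5 CPM in controls (median 20.7) and between 14.5 and 22.7 CPM in mutants (median 21.3), with a log2 difference of -0.05 ± 0.14 (SE, edgeR adjusted p = 0.961). *Grm4* took 69.6% ± 6.47 (SD, n = 6) of family counts per kilobase in controls and 66.2% ± 5.64 in mutants, followed by *Grm3* with 20.1% ± 5.23 and 19.0% ± 3.84. *Grm7*, another group III receptor, is given because its mutants followed the neuron markers in order and was picked once its values were known. It lay between 1.08 and 2.14 CPM in controls and between 0.848 and 5.17 CPM in mutants (log2 fold change 0.80 ± 0.38 SE, edgeR adjusted p = 0.485), with the highest value in mutant 4. Without mutant 4 the log2 fold change was 0.50, and with the marker scores as covariates it was -0.60.

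The GABA-A family held the most subunits with a difference at an unadjusted p under 0.05, 8 of 13 tested, and mutant 4 set most of that count. All 8 were higher in mutants, against 6.52% of all tested genes. Of them *Gabra5* and *Gabrg1* passed the filter only through mutant 4, which favours a higher level in this count. The 18 subunits summed to between 17.2 and 23.9 CPM in controls and to between 21.1 and 113.7 CPM in mutants, and 113.7 CPM was the value of mutant 4. In mutant 4, 8 of the 49 tested subunits were more than 2-fold above each other library (1.06% of all genes). 7 of them were GABA-A subunits, among them *Gabra2*, *Gabra5*, *Gabrb2* and *Gabrg1*, and the remaining 1 was *Chrna5*. No subunit stood out in this way in any of the other 11 libraries. Whether these values belong with the peripheral neuron genes of the same library was not tested.

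The 3 kinds of subunit that make up a typical synaptic GABA-A receptor, alpha, beta and gamma, were all among them. *Gabra2* encodes the alpha2 subunit. It lay between 0.275 and 0.677 CPM in controls (median 0.389) and between 0.460 and 25.4 CPM in mutants (median 0.737). The value of 25.4 CPM was that of mutant 4, and the highest other mutant was at 0.890 CPM. With all mice this made a log2 fold change of 3.43 ± 1.20 (SE, edgeR adjusted p = 0.278), and without mutant 4 of 0.57 ± 0.29 (SE, adjusted p = 0.590).

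*Gabrg1* encodes a gamma subunit, the kind that links receptors to the synapse, and was at a trace outside mutant 4. It lay between 0.0578 and 0.25 CPM in controls (median 0.165) and between 0.0848 and 0.219 CPM in 5 mutants, with 4.21 CPM in mutant 4. With all mice edgeR gave 2.43 ± 1.1 (SE, adjusted p = 0.464) as the log2 fold change, and without mutant 4 the gene was under the filter. *Gabra5* (1.49 CPM in mutant 4 against at most 0.273 CPM elsewhere) and *Gabrb2* (11.8 against at most 1.74 CPM), chosen after their values were seen, had the same pattern.

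These genes lie in clusters in the genome, and neighbours did not all share the pattern. *Gabrb2* (chr11:42419757-42629028) was more than 2-fold above all other libraries in mutant 4. In the chromosome 5 cluster *Gabra2* (chr5:70957597-71095849) and *Gabrg1* (chr5:70751047-70842617) were, whereas *Gabra4* (6.11 CPM against at most 5.16 elsewhere) and *Gabrb1* (5.99 against at most 4.55) were at most 1.32 times the next library. In the chromosome 7 cluster *Gabra5* was, and *Gabrg3*, at 0.935 CPM in mutant 4, was below its value of 1.1 CPM in control 3.

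**Figure D4:**
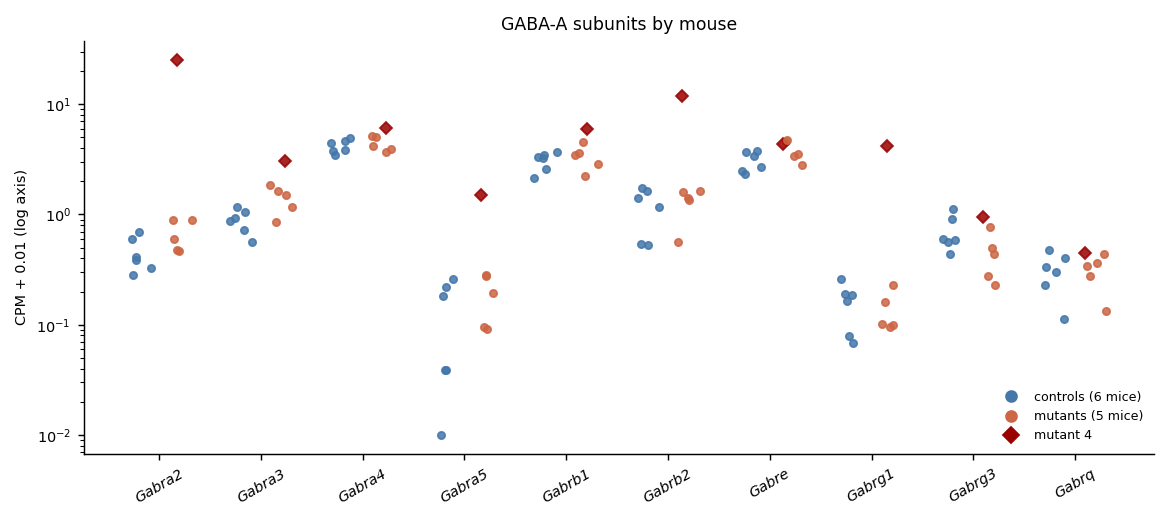
CPM plus 0.01 of 10 of the 13 tested GABA-A subunits in each mouse on a log axis, with controls and mutants side by side and mutant 4 as a diamond. In *Gabra2*, *Gabra5*, *Gabrb2* and *Gabrg1* the diamond stands more than 2-fold above the 11 other mice, and the other mutants lie among or near the controls.

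2 GABA-A genes on the X chromosome were also higher at an unadjusted p under 0.05, and in both of them mutants other than mutant 4 lay above each control. *Gabra3*, which encodes the alpha3 subunit, lay between 0.552 and 1.17 CPM in controls (median 0.894) and between 0.848 and 3.07 CPM in mutants (median 1.57), and 4 of 6 mutants were above each control. In edgeR the log2 difference between the groups was 0.94 ± 0.28 (SE, adjusted p = 0.152) with all mice and 0.68 ± 0.24 (SE, adjusted p = 0.282) without mutant 4. *Gabre*, which encodes the epsilon subunit, lay between 2.32 and 3.78 CPM in controls (median 3.02) and between 2.79 and 4.76 CPM in mutants (median 3.96), with 0.36 ± 0.17 (SE, edgeR adjusted p = 0.471) as the log2 fold change, and 0.33 without mutant 4, where it was no longer under an unadjusted p of 0.05. In controls *Gabra4* (20.6% ± 2.14, SD, n = 6) and *Gabre* (19.4% ± 3.97) took large shares of family counts per kilobase, and the 2 shares did not differ beyond their spread. In mutant 4 *Gabra2* took 19.5% and *Gabre* 5.39%.

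*Glrb*, of the glycine receptor family, was the most abundant of the 63 subunits per kilobase, and its groups overlapped. It encodes the beta subunit that anchors glycine receptors to gephyrin, and forms no channel without an alpha subunit. *Glrb* lay between 100.4 and 148.0 CPM in controls (median 127.1) and between 101.1 and 139.8 CPM in mutants (median 129.0), with a log2 difference of 0.00 ± 0.09 (SE, edgeR adjusted p = 0.9996). It took 99.6% ± 0.22 (SD, n = 6) of family counts per kilobase in controls and 99.5% ± 0.46 in mutants, so that transcripts of the 4 alpha subunits were rare in this tissue.

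*Glra2*, which encodes the alpha2 subunit of the embryonic receptor, was the 1 alpha subunit that passed the filter. It had between 0 and 4 counts in controls, 27 and 25 in mutants 1 and 2, and at most 8 in the other mutants. Without mutant 1 or without mutant 2 *Glra2* was under the filter, so that its test rests on these mice. It lay between 0 and 0.116 CPM in controls (median 0.0588) and between 0.0283 and 0.828 CPM in mutants (median 0.161). 3 of 6 mutants were above each control, with mutants 1 and 2 the highest at 0.828 and 0.758 CPM. With all mice this made a log2 fold change of 2.45 ± 0.83 (SE, edgeR adjusted p = 0.230), and without mutant 4 of 2.52 ± 0.87 (SE, adjusted p = 0.274), and at these counts the estimate is imprecise.

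Among the neuronal nicotinic genes, *Chrna5* and *Chrnb2* were the members with a difference at an unadjusted p under 0.05. *Chrna5* encodes an accessory subunit that joins receptors of other alpha and beta subunits. It lay between 0.0935 and 0.178 CPM in controls (median 0.132) and between 0.182 and 1.40 CPM in mutants (median 0.288). All mutants were above all controls, by little in mutant 2 at 0.182 CPM, and by most in mutant 4 at 1.40 CPM. In counts, controls held between 3 and 5, mutant 2 held 6, mutant 4 held 48 and the other mutants at most 11. The gap between the highest control and mutant 2 thus lies within counting error. edgeR gave 1.72 ± 0.51 (SE, adjusted p = 0.146) as the log2 fold change, and 0.96 ± 0.29 (SE, adjusted p = 0.163) without mutant 4.

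*Chrna5* lies in a cluster with *Chrna3* and *Chrnb4*, the subunits of ganglionic receptors, on chromosome 9 (*Chrna5* at chr9:54980880-55007779 and *Chrnb4* at chr9:55028154-55048779). Mutant 4 was also the highest library for *Chrna3*, at 6.08 CPM against at most 3.34 CPM elsewhere, and for *Chrnb4*, at 8.04 against at most 5.20 CPM. Neither gene differed between the groups at an unadjusted p under 0.05, with log2 fold changes of 0.68 and 0.00, and of 0.22 and -0.28 without mutant 4, so that *Chrnb4* turned to lower values in mutants.

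*Chrnb2* encodes the beta2 subunit, the main partner of alpha4 in the brain, and lies at chr3:89746195-89764632. It lay between 1.84 and 4.52 CPM in controls (median 3.04) and between 2.76 and 12.1 CPM in mutants (median 6.62). 4 of 6 mutants were above each control, and mutants 3 and 5 were not. In edgeR the log2 difference between the groups was 1.13 ± 0.33 (SE, adjusted p = 0.147) with all mice and 0.89 ± 0.30 (SE, adjusted p = 0.251) without mutant 4. Of its 8380 exon bases, 1365 also belong to *Adar* on the opposite strand, and how reads were counted by strand is not given in the sources used here.

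*Chrna4* was the most abundant neuronal nicotinic subunit gene per kilobase, with groups that overlapped. It lay between 10.6 and 12.96 CPM in controls (median 11.3) and between 8.53 and 14.5 CPM in mutants (median 11.9), with 0.04 ± 0.12 (SE, edgeR adjusted p = 0.961) as the log2 fold change. It took 48.3% ± 3.17 (SD, n = 6) of family counts per kilobase in controls and 42.7% ± 6.60 in mutants, *Chrnb4* 24.3% ± 3.27 and 19.7% ± 4.99, and *Chrnb2* 7.99% ± 2.36 and 14.4% ± 5.74. *Chrna7* and *Chrnb3* had log2 fold changes of 0.40 and 0.20 with overlapping groups.

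*Chrnb1*, which encodes the beta subunit of the muscle receptor, lay between 15.1 and 17.7 CPM in controls (median 16.2) and between 14.2 and 16.8 CPM in mutants (median 15.2). The groups differed by -0.09 ± 0.07 on the log2 scale (SE, edgeR adjusted p = 0.785). *Chrna1* lay between 3.92 and 5.26 CPM in controls and between 4.11 and 5.49 CPM in mutants. *Chrne* and *Chrng*, which encode the adult and the fetal subunit of the muscle receptor, had log2 fold changes of -0.09 and -0.44 and overlapped between the groups, and *Chrnd* had at most 3 counts in any library. No member of this family differed at an unadjusted p under 0.05.

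Since neuron markers differed between mice of the same genotype, the subunits were set beside them. In order of summed neuron markers the mutants were 4, 1, 2, 6, 3 and 5. 3 of the 49 tested subunits, *Grin1*, *Chrnb2* and *Grm7*, were in exactly this order over the 6 mutants (0.525% of all tested genes). *Grin1* was at 9.47, 6.99, 6.80, 3.62, 2.12 and 0.902 CPM in these mice, where the markers summed to 1425, 722, 677, 426, 304 and 202.0 CPM. *Gria2* and *Grik2* did not keep this order, and were highest in mutant 2. The part of the number of neurons in these differences was not tested. In the covariate fit the log2 fold change was -0.39 for *Grin1*, -0.29 for *Chrnb2* and 0.05 for *Gria2*. It was 0.44 for *Grik2* and 0.43 for *Grik4*, with an edgeR adjusted p of 1 for each of these genes. The covariates are marker RNA levels that leaned higher in mutants, so that this fit cannot separate neuron content from genotype.

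**Figure D5:**
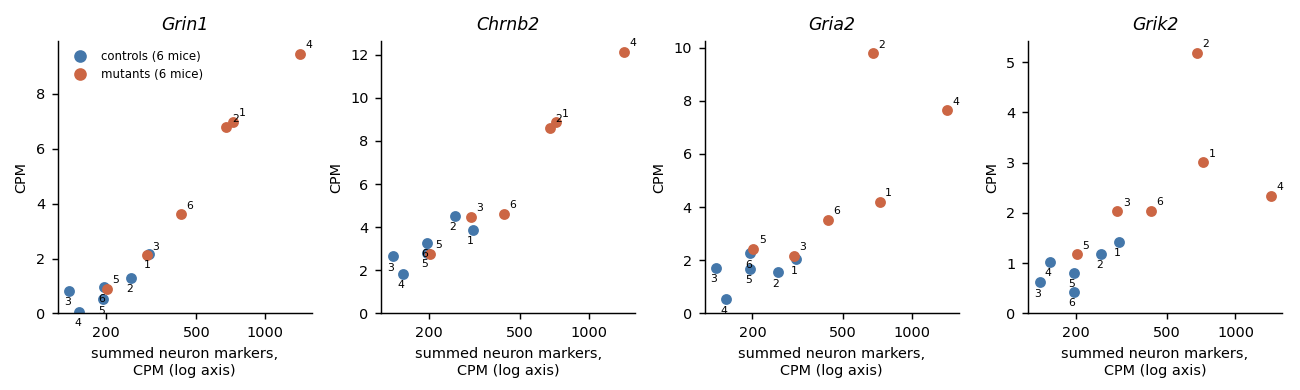
CPM of *Grin1*, *Chrnb2*, *Gria2* and *Grik2* in each mouse, labelled by its replicate number, against the summed CPM of 15 neuron markers on a log axis. *Grin1* and *Chrnb2* are highest in mutant 4, which has the highest marker sum of 1425 CPM, whereas *Gria2* and *Grik2* are highest in mutant 2 at 677 CPM.

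The 49 tested subunits also differed in which mouse held the highest value. Mutant 4 was the highest mutant for 29 of them (16.8% of all tested genes) and the highest of all 12 mice for 23 (10.5%), and mutant 2 was the highest mutant for 8 (21.8%) and the highest of all 12 for 6 (15.6%). The lowest mutant was mutant 1 for 16 subunits (30.7%) and mutant 5 for another 16 (11.6%). Mutant 4 was the lowest mutant for 2 (13.1%).

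Genes that act with the receptors were read from 5 lists, of AMPA and kainate auxiliary proteins, glutamate synapse scaffolds, glutamate supply and uptake, GABA and glycine synapses, and acetylcholine synapses. Of 81 genes 73 were tested, and 1 passed the adjusted threshold in edgeR's test. This was *Cacng2*, which encodes stargazin, an auxiliary subunit that carries AMPA receptors to the synapse. It rose from between 0.376 and 0.820 CPM in controls (median 0.523) to between 0.932 and 3.85 CPM in mutants (median 2.27), and the groups did not overlap. The groups differed by 1.96 ± 0.34 on the log2 scale (SE, edgeR adjusted p = 0.0365), and mutant 4, at 2.43 CPM, was within the range of the other mutants. With the neuron and Schwann cell marker scores as covariates the log2 fold change of *Cacng2* was 0.63 ± 0.37 (SE, edgeR adjusted p = 1). The call did not hold in that fit or in limma-voom, nor when control 2, 3, 4, 5 or 6 or mutant 2 or 6 was left out, each of which took the number of partner genes called to 0, while without mutant 5 it was 5.

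At an unadjusted p under 0.05, 19 of the 73 partner genes were higher in mutants and 2 lower, against 6.52% and 4.04% of all tested genes, with a median log2 fold change of 0.05 over the 73. By list these were 5 of 15 tested auxiliary genes higher and 1 lower, 3 of 18 scaffold genes higher, 4 of 12 supply and uptake genes higher, 4 of 16 GABA and glycine synapse genes higher and 1 lower, and 3 of 12 acetylcholine genes higher. Without mutant 4 the genes higher numbered 4, 2, 4, 4 and 2 in the same order. The lower gene of the GABA and glycine list was *Gad1*, which encodes an enzyme of GABA synthesis. *Gad1* averaged 4.72 ± 1.23 CPM (SD, n = 6) over controls and 2.79 ± 0.493 CPM over mutants (log2 fold change -0.76 ± 0.18 SE, edgeR adjusted p = 0.0903).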

How the data were processed

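The authors deposited raw read counts per gene symbol for each of the 12 libraries, made from single-end reads of 100 bases. The submitters' processing notes name Trimmomatic 0.32, STAR 2.4.2a, HTSeq 0.9.1, DESeq2 1.10.1 and the build GRCm38.p4. The gene annotation and strand setting are not given in the sources used here. A second deposited table, the authors' DESeq2 comparison with fold changes and p-values, was not used.

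Libraries were grouped by the genotype in the sample labels. The 18459 genes whose mean count reached 5 were compared by edgeR 4.0.16 (TMM, robust quasi-likelihood F-test, R 4.3.3) without covariates, and p-values were adjusted by Benjamini-Hochberg over all of them. The fits were tested on simulated data. CPM uses TMM-scaled totals over tested genes. Coordinates and exon lengths come from GENCODE M21 (GRCm38), in which all 63 subunits were found, and promoters from RefSeq. An exon length is that of all annotated exons of a gene merged.

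Alternatives were DESeq2 1.42.0 without a prior, limma-voom (limma 3.58.1), RLE scaling, all genes unfiltered, a minimum mean count of 20, the replicate number as a block, neuron and Schwann cell scores (mean log2 CPM of the markers) as covariates, and leaving out each mouse. DESeq2 without mutant 4 or mutant 5 was added after the data were seen.

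The members and lists were chosen with earlier results of these data known. A few genes that this rule or the lists hold are not reported here. Values in full are given for the 15 tested subunits with the smallest p, the most abundant subunit per kilobase of each family, *Gria2*, and partner genes that were called or had the 3 smallest p-values. Values of other subunits complete a family or a gene cluster and were chosen after they were seen. Marker lists of macrophages, melanocytes and stria, mesenchyme, erythroid cells and dividing cells were also summed. Each library was counted as 1 mouse. The litter of a mouse is not in the labels used here. The p-values set a difference between the groups against the spread between mice, and take the mice as independent. Libraries of 1 genotype differed by more than counting error (chi-square per degree of freedom of at least 13.5 over 30 pairs).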

Additional observations from a re-analysis of the deposited data

Results flagged for a closer look

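For *Jag1*, the named subunits and the marker sums, the highest and the lowest mouse of each genotype were compared with the rest of the group by Dixon's criterion, in which the gap to the nearest mouse is divided by the range of the group. This was done in 62 groups, of which 5 were past the limit, where chance gives about 5%.

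In 3 of the 5 the mouse was mutant 4, all of them high. *Gabra2* was at 25.4 CPM against at most 0.890 CPM in the other mutants, *Gabrg1* at 4.21 against at most 0.219 and *Chrna5* at 1.40 against at most 0.311 CPM. In the same library *Prph*, *P2rx3*, *Tac1*, *Tlx3*, *Prrxl1*, *Scn9a*, *Scn10a* and *Scn11a* were also above every other mouse, and whether they belong together with the receptor values was not tested.

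Of the other 2, *Chrna4* was at 12.96 CPM in control 3 against 10.6 to 11.5 CPM in the other controls, and the 6 markers of dividing cells summed to 66.5 CPM in control 1 against 79.7 to 87.3 CPM.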

How the results depend on the processing

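The log2 fold change of *Jag1* lay between -1.54 and -1.39 over all settings, and with the marker scores as covariates it was -1.44 and no longer past the adjusted threshold. Genes with an adjusted p under 0.05 numbered 35, against 619 in DESeq2, 19 in limma-voom, 57 with no filter, 131 with the replicate block, 1 with the scores, and 14 to 356 when 1 mouse was left out. DESeq2 gave 518 without mutant 4 and 707 without mutant 5. Subunits called numbered 0, against 5 in DESeq2, 1 (*Grik2*) with the replicate block and 0 to 5 with 1 mouse left out, the 5 being without mutant 5. DESeq2 called 3 without mutant 4 (*Gria2*, *Grik2* and *Grik4*) and 7 without mutant 5 (*Gabra3* and *Glra2* in addition to its 5). Subunits higher at an unadjusted p under 0.05 numbered 15, against 7 in limma-voom, 8 with the block, 1 with the scores, 8 to 18 with 1 mouse left out (9 without control 4) and 8 in DESeq2 without mutant 4. Of all genes 6.52% were higher in edgeR with all mice, 5.63% without mutant 4 and 1.25% with the scores. For the other settings this share was not counted, so that their numbers of subunits cannot be set against it. Subunits lower numbered 1, against 2 with no filter, 0 with the block, 0 to 1 with 1 mouse left out, and 0 in DESeq2 without mutant 4 and 0 without mutant 5. Partner genes called numbered 1, against 8 in DESeq2, 0 in limma-voom, 2 with the block, 0 with the scores, 0 to 5 with 1 mouse left out, 5 in DESeq2 without mutant 4 and 12 without mutant 5. With the scores the log2 fold change of 17 of the 49 tested subunits changed sign, of which *Gabra5* was at -0.59, *Grm7* at -0.60, *Grm8* at -0.31, *Gria4* at -0.34 and *Grik3* at -0.28. Among the named subunits these were *Grin1* (-0.39), *Chrnb2* (-0.29), *Glra2* (-1.48), *Chrna4* (-0.15), *Gria3* (-0.017) and *Glrb* (-0.037). The log2 fold change of *Glrb*, near 0, was also -0.0025 in DESeq2, -0.0025 with RLE, -0.0078 with no filter, -0.031 and -0.0058 in DESeq2 without mutant 4 and 5, and -0.059 to 0.058 with 1 mouse left out. With 1 mouse left out it was -0.029 to 0.12 for *Chrna4*, -0.055 to 0.026 for *Grik5*, -0.087 to 0.027 for *Grin2d* and -0.12 to 0.0644 for *Grm4*, and in DESeq2 without mutant 4 it was -0.031 for *Chrna4*. The cause of these changes was not tested. Of 392 values of 19 named subunits over 21 settings, 345 kept their direction and side of the threshold, 21 passed it and 26 changed sign. Mice of the same replicate number had correlations of their deviations between -0.187 and 0.272. For controls 2 and 3 the best match was the mutant of the same number, and for the other controls it was not. Whether the numbers pair the mice is not known. Subunits with few counts, such as *Glra2*, *Gabra5* and *Chrna5*, are measured with the least precision, and counting error there adds to the spread between mice.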

Other observations

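The genes that work with the receptors were also examined in mutant 4, and those named here were chosen after their values were seen. *Lhfpl4*, which encodes a membrane protein that holds GABA-A receptors at inhibitory synapses, was at 60.4 CPM in mutant 4 and at most 15.9 CPM in any other mouse. *Gabbr2*, which encodes a subunit of the metabotropic GABA-B receptor, was at 32.5 CPM against at most 15.4 CPM. *Slc17a6*, which encodes the vesicular glutamate transporter VGLUT2, was at 25.3 CPM against at most 9.71 CPM, and *Ache*, which encodes acetylcholinesterase, at 27.8 against at most 7.28 CPM. *Slc17a7*, which encodes VGLUT1, the transporter of spiral ganglion neurons, was by contrast at 7.42 CPM in mutant 4 and reached 31.3 CPM in another mutant.

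Other cell types were read from their marker lists. The macrophage markers summed to between 323.9 and 406 CPM in controls and between 260.3 and 348 CPM in mutants, with mutant 4 the lowest. Melanocyte and stria markers summed to between 1081 and 1530 CPM in controls and between 921.3 and 1480 CPM in mutants, mesenchyme markers to between 6689 and 8559 CPM and between 6309 and 7574 CPM, erythroid markers to between 307.4 and 953.2 CPM and between 141.6 and 549.1 CPM, and markers of dividing cells to between 66.5 and 87.3 CPM and between 65.6 and 93.7 CPM. In edgeR's test none of the genes on these 5 lists passed the adjusted threshold. At an unadjusted p under 0.05, 5 of 9 macrophage markers and 1 of 5 erythroid markers were lower in mutants, and no gene of the other 3 lists differed.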
